A study of Mus musculus with 82 samples.

Results

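Regions of open chromatin that were listed in 1 arm of a reprogramming experiment at both days, and in the other arm at neither, were contrasted here. They number 1005 of the 55272 regions that result when the 4 deposited peak lists are merged. The Flag-held regions, listed with Flag at days 3 and 7 and never with RNase H1(D209N), number 793, which is 1.43% of all regions. The D209N-held regions, listed with RNase H1(D209N) at both days and never with Flag, number 212, or 0.384% of all regions. Presence was an overlap of at least 1 bp on chromosomes 1 to 19, X and Y, so these counts follow from the rule and are given as a description.

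ATAC-seq makes up 8 of the series' 82 samples, in 4 groups of 2. OG2-MEFs at passage 2, mouse embryonic fibroblasts that carry an Oct4 reporter, received retroviral OSKM (Oct4, Sox2, Klf4 and c-Myc) in every group. The groups added either Flag, read here as the control arm, or RNase H1(D209N), called D209N, and were taken at day 3 or day 7 after culture in iCD1 or mESC medium with vitamin C. The labels do not say which medium a library came from, and cells that had or had not begun to reprogram were not separated. Each group has 1 deposited list, so no value has a replicate error, no test between conditions was made, and Wilson 95% intervals cover counting error only. Read depth is unknown, and a region absent from a list may be accessible below the calling threshold.

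ATAC-seq uses a transposase to cut and tag DNA that is not covered by nucleosomes, and a peak marks a promoter, an enhancer or another exposed site. During reprogramming by OSKM, many enhancers of the fibroblast close early while enhancers of the pluripotent cell open later. RNase H1 degrades the RNA strand of RNA:DNA hybrids such as R-loops, while the D209N form, altered at a catalytic residue, binds hybrids without cutting them.

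Promoter sequences are shown first for the members at a gene start that were chosen by the bases under their peaks, because they are the members whose letters could be read. Each is the RefSeq promoter of GRCm38.p6, from 250 bases before the start to 50 after it, written 5′ to 3′ on the gene's strand. Capitals mark matches, on either strand, to any of 11 short motifs, whose letters are spelled out with the motif counts. The first 4 promoters overlap Flag-held regions and the last 3 overlap D209N-held regions.
Col24a1 (chr3:145292222-145292521, plus strand): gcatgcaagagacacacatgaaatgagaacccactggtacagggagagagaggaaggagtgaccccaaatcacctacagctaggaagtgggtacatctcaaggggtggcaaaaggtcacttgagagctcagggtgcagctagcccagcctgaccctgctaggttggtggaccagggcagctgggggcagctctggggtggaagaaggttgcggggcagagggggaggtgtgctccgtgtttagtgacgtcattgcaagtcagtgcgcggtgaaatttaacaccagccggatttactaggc
Pglyrp1 (chr7:18884440-18884739, plus strand): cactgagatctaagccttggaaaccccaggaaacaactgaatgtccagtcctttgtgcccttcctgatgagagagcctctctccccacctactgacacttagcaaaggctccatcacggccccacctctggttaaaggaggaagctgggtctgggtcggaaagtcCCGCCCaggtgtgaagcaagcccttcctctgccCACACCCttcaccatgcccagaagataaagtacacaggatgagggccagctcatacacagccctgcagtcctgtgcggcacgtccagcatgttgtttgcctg
Tnfrsf14 (chr4:154928028-154928327, minus strand): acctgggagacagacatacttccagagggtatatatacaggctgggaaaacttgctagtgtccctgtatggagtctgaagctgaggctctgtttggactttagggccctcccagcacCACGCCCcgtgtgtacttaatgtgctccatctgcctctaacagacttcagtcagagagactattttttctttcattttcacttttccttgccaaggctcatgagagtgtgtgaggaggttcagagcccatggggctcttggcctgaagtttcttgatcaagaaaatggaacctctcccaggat
Ccdc170 (chr10:4482265-4482564, plus strand): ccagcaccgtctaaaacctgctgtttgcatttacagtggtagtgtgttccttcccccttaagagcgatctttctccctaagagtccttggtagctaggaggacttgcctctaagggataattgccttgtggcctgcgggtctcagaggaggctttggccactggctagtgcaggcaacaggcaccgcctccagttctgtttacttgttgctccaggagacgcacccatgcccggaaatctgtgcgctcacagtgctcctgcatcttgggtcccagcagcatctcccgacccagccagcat
Ddx3y (chrY:1286564-1286863, minus strand): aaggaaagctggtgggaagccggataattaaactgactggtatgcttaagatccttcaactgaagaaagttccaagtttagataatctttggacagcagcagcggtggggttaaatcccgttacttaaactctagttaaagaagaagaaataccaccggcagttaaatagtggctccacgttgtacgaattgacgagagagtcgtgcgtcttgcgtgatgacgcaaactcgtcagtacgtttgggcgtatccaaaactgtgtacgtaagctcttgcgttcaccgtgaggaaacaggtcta
Col3a1 (chr1:45311288-45311587, plus strand): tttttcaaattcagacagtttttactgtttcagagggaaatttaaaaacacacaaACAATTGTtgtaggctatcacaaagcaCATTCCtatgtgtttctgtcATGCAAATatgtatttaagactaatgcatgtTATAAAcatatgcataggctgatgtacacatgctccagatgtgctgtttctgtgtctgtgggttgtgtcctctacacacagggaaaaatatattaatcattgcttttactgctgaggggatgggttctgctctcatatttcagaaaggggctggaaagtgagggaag
Col6a1 (chr10:76725995-76726294, minus strand): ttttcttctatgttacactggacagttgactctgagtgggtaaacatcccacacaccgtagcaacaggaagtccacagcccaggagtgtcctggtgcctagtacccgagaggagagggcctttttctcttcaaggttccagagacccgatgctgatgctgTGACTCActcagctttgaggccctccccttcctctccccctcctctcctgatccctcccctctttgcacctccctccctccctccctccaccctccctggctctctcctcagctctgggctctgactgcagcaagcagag

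Col24a1 and Ccdc170 in the Flag-held set and Ddx3y in the D209N-held set have no match. Pglyrp1 has a GC box and a KLF match, and Tnfrsf14 has a KLF match. Col3a1, which encodes a fibrillar collagen of connective tissue, has matches to TEAD, the octamer and TATA, and a Sox match on both strands whose letters overlap. All 5 lie in the part of the promoter outside the D209N-held region, which covers 158 of its bases. Col6a1, which encodes a chain of the microfibrillar collagen VI, has 1 AP-1 match. The Col3a1 promoter holds 0 CpG and 37.7% G and C, the Col6a1 promoter 3 CpG and 57.3%, and the Ddx3y promoter 17 CpG and 45.0%. A match is a run of letters and not evidence of binding.

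The size of each class was first set beside the regions that could have entered it. At day 3, 10001 regions were listed with Flag only (18.1% of all regions) and 2823 with D209N only (5.11%). At day 7 the counts were 7437 (13.5%) and 5557 (10.1%). Flag-only regions thus outnumbered D209N-only regions 3.54 to 1 at day 3 (interval 3.40 to 3.69) and 1.34 to 1 at day 7 (1.29 to 1.39). The lists themselves differed in length. At day 3 the Flag list covered 35879 regions and the D209N list 28701, and at day 7 they covered 42048 and 40168. These ratios were not corrected for list length, and its part in them was not tested. The ratio of the classes held on both days was 3.74 (3.22 to 4.35), within counting error of the day 3 ratio and above the day 7 ratio.

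Regions of 1 arm at day 3 were held by that arm at a like rate in both arms. Of the 10001 Flag-only regions, 7.93% (7.42 to 8.48) were Flag-only again at day 7. Of the 2823 D209N-only regions, 7.51% (6.59 to 8.54) were D209N-only again. Both arms more often listed the region on day 7 together, in 44.6% and 44.4%, or not at all, in 40.1% and 37.6%. The classes thus differed in the number of 1-arm regions they started from at day 3, while the shares held differed by less than counting error.

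Regions that changed arm between the days give the background for those that did not. Of the Flag-only regions of day 3, 736 (7.36%, 6.86 to 7.89) were listed only with D209N at day 7. Held regions outnumbered them 1.08 to 1, with an interval of 0.975 to 1.19 that includes an equal number. Of the D209N-only regions of day 3, 296 (10.5%, 9.41 to 11.7) were listed only with Flag at day 7. Here held regions were fewer than changed ones, at a ratio of 0.716 (0.601 to 0.854). The day 7 pools were themselves unequal, at 1.34 Flag-only regions to each D209N-only region (1.29 to 1.39). Neither ratio was corrected for this, so an equal number is not a neutral background for them. Taken over all places, held regions thus did not outnumber changed ones beyond counting error in either direction of the contrast.

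**Figure D1:**
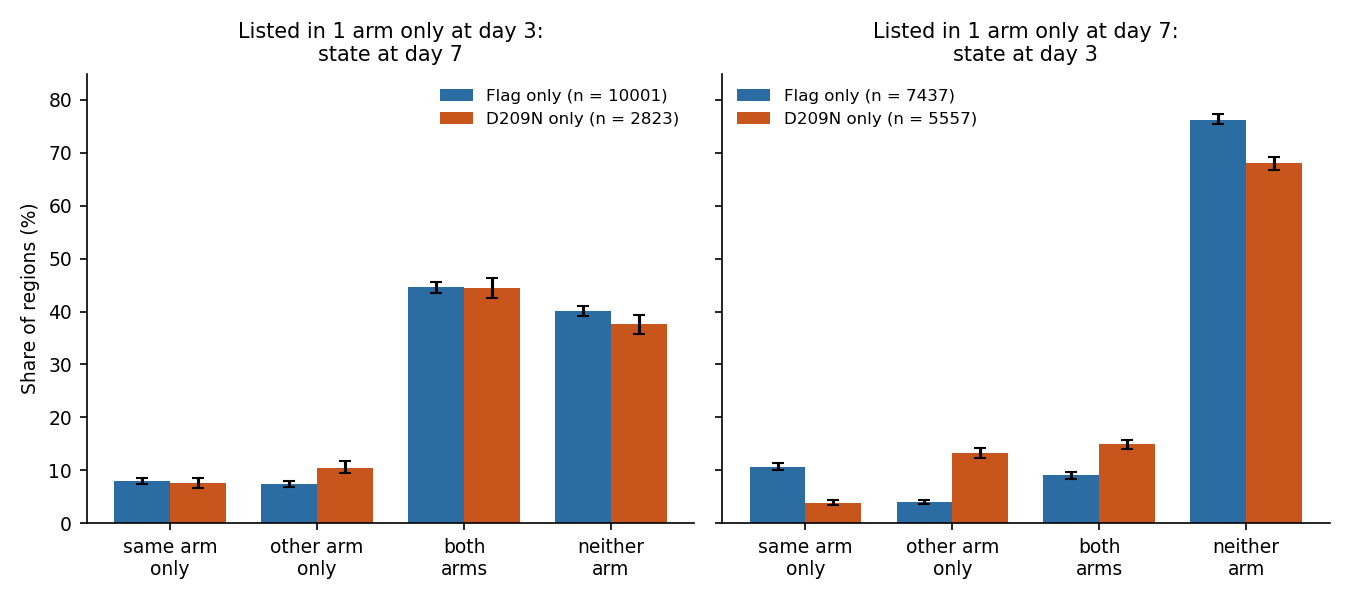
Bars give the share of regions listed in 1 arm only at day 3 by their state at day 7 (left), and of regions listed in 1 arm only at day 7 by their state at day 3 (right), for Flag (blue) and D209N (orange). Error bars are Wilson 95% intervals. On the left the same-arm bars stand at 7.93% and 7.51% beside other-arm bars of 7.36% and 10.5%.

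Read from day 7 back, the shares differed between the arms, but both arms drew on day 3 pools of unequal size. Those pools held 3.54 Flag-only regions to each D209N-only region (3.40 to 3.69). Of the 7437 Flag-only regions of day 7, 10.7% had been Flag-only at day 3 and 3.98% D209N-only. That is a ratio of held to changed regions of 2.68 (2.34 to 3.06), below the pool ratio. Of the 5557 D209N-only regions of day 7, 3.82% had been D209N-only at day 3 and 13.2% Flag-only. Here the ratio of changed to held regions was 3.47 (2.98 to 4.04), within counting error of the pool ratio. Most had been in neither arm at day 3, 76.3% for Flag and 68.1% for D209N. Among all 27711 regions listed with Flag on both days, 2.86% were absent from D209N on both days, and 18.5% were absent on 1 day only, that is, listed with D209N on 1 of the days. Among the 24077 listed with D209N on both days, 0.881% were absent from Flag on both and 8.64% were listed with Flag on 1 day.

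The held regions carried narrow peaks. The median Flag-held peak spanned 278 bp at day 3 (interval of the median 270 to 287) and 264 bp at day 7 (257 to 273). The median D209N-held peak spanned 263 bp at day 3 (251 to 277) and 285 bp at day 7 (268 to 316). Regions in all 4 lists had medians of 617 and 686 bp with Flag and 537 and 698 bp with D209N. Regions that changed arm had medians between 267 and 280 bp, and regions found in 1 list alone between 243 and 271 bp. In width the held regions lay with those 1-list and changed-arm regions and not with the shared ones.

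Few members reached the median width of their own list. At day 3 this was 6.43% of the Flag-held regions (4.93 to 8.36), beside 72.1% of regions in all 4 lists. At day 7 it was 6.31% (4.82 to 8.22), beside 79.3%. Among the D209N-held regions it was 3.77% at day 3 (1.92 to 7.27) and 7.08% at day 7 (4.33 to 11.3), beside 61.9% and 77.8%. Only 4 Flag-held and 2 D209N-held regions reached it on both days.

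The peaks of both days must overlap or touch for a region to be a member, so their shared bases are given as a description only. The same overlap was not computed for other regions. In size the peaks of both days were not related. Every member had 1 peak per day. The median overlap of a member's day 3 and day 7 peaks was 211 bp for Flag, or 98.1% of the shorter peak, and 200 bp for D209N, or 100%. At least 50% of the shorter peak was shared in 735 Flag-held (92.7%) and 195 D209N-held (92.0%) regions. Across regions, the day 3 and day 7 widths had a Spearman rho of 0.00 over the 793 Flag-held and 0.02 over the 212 D209N-held regions, as a description of regions that share their lists. Over the 21785 regions in all 4 lists, rho was 0.73 with Flag and 0.67 with D209N, and over the regions that changed arm it was 0.04 and 0.05. The lack of a relation was thus shared with the changed-arm regions. The Flag-held peak was wider at day 3 in 402 regions and at day 7 in 384, with 7 equal, while the D209N-held peak was wider at day 3 in 84 and at day 7 in 128.

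**Figure D2:**
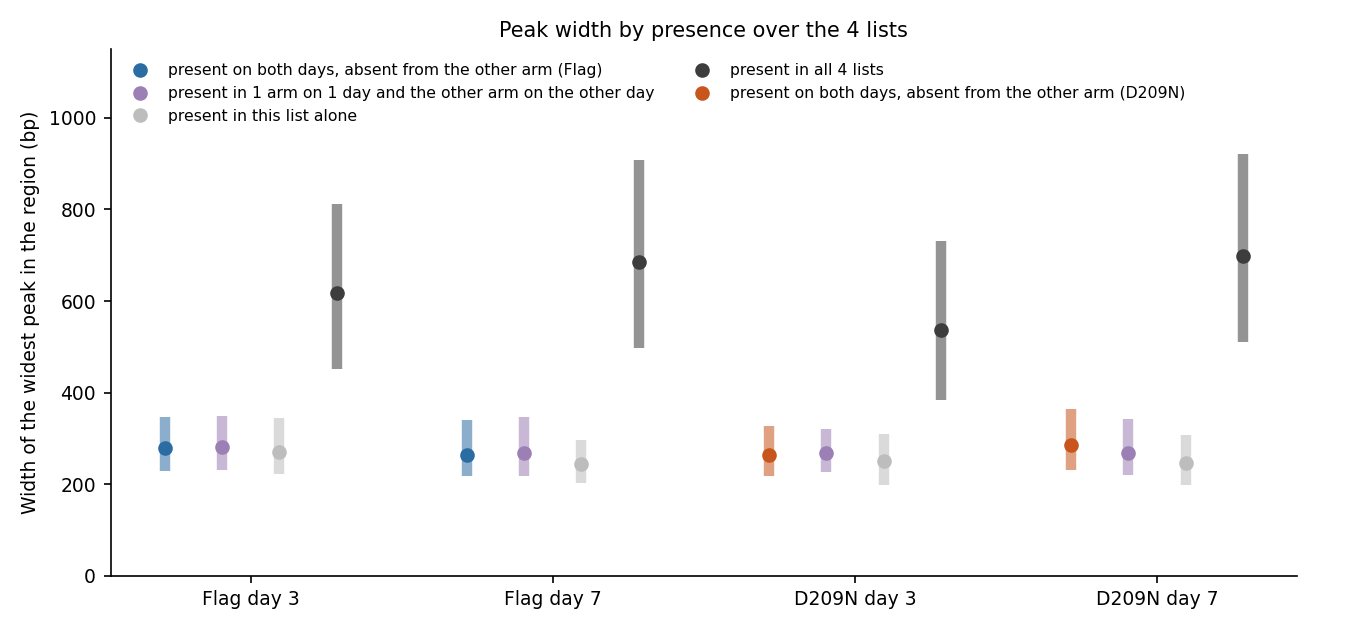
Points give the median and bars the middle 50% of peak widths in bp, for each list, in regions held by that arm (blue or orange), regions that changed arm (purple), regions in that list alone (light grey) and regions in all 4 lists (dark). Medians of the held regions lie between 263 and 285 bp, and those of regions in all 4 lists between 537 and 698 bp.

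Members lay mainly away from gene ends, the 1 kb around either annotated end of a protein-coding gene. Among the Flag-held regions 81 (10.2%, 8.29 to 12.5) were at a gene end, and among the D209N-held regions 13 (6.13%, 3.62 to 10.2). The difference was 4.08 percentage points, with an interval from -0.422 to 7.49 that includes 0. Gene ends took 46.3% of the regions in all 4 lists and 25.1% of all regions, but 7.34% and 5.41% of regions that changed arm from Flag to D209N and from D209N to Flag. The inside of a gene held 50.6% of the Flag-held and 50.9% of the D209N-held regions, beside 39.3% of all regions. The median distance to the nearest coding gene end was 17.6 kb (14.5 to 19.9) and 27.9 kb (18.3 to 33.8), beside 12.2 kb over all regions, and 12.4% and 18.4% lay more than 100 kb from any. Regions that changed arm, from Flag and from D209N, had 46.9% and 55.4% inside a gene and median distances of 24.9 and 21.4 kb. A place away from gene ends was thus not particular to the held regions.

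The ratio of held to changed regions was also taken by place. At gene ends 81 Flag-only regions of day 3 were held and 54 went to D209N only, a ratio of 1.5 (1.06 to 2.11). Away from gene ends the numbers were 712 and 682, a ratio of 1.04 (0.940 to 1.16). The Flag interval lay above an equal number at gene ends and included it away from them, but an equal number is not a neutral background here either. At gene ends, 628 regions were in the Flag day 7 list alone and 338 in the D209N day 7 list alone. The ratios by place were not corrected for such unequal pools, so they do not show that Flag regions were held preferentially at gene ends. The intervals overlap, but overlap does not decide whether the ratios differ, and the difference between the places was not tested. For D209N, 13 regions were held and 16 changed at gene ends, a ratio of 0.812 (0.397 to 1.66), and away from them the ratio was 0.711 (0.593 to 0.852).

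**Figure D3:**
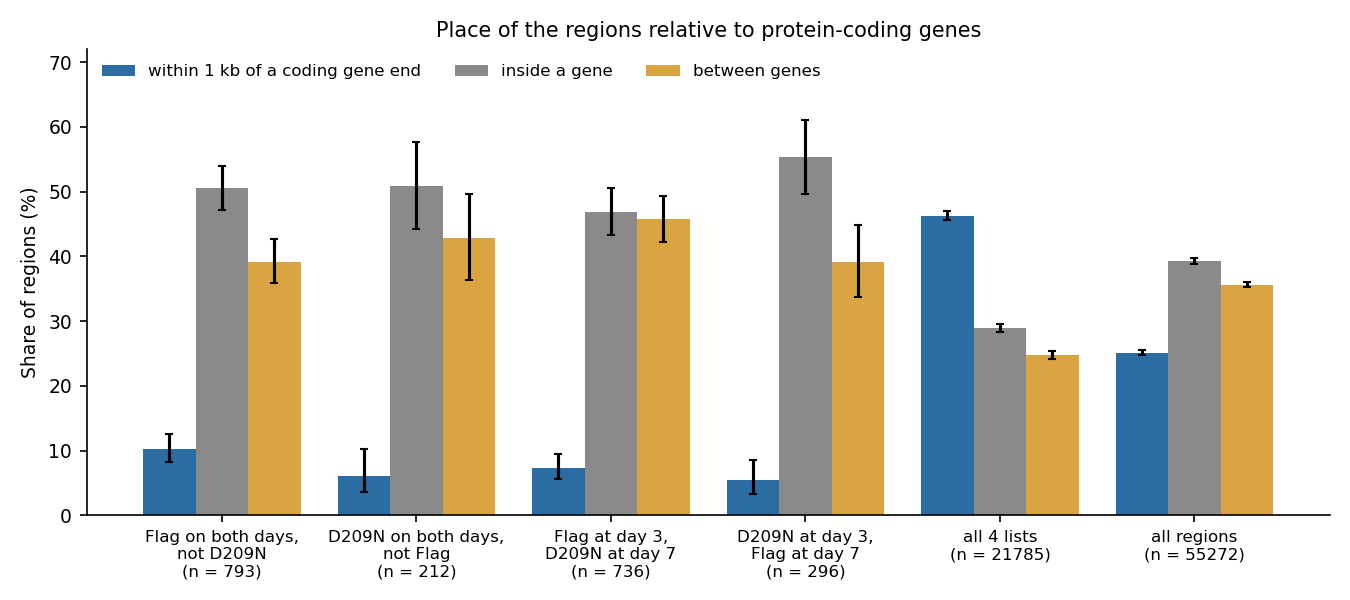
Bars give the share of regions within 1 kb of a coding gene end (blue), inside a gene (grey) or between genes (yellow), for the held classes, the classes that changed arm, regions in all 4 lists and all regions, with Wilson 95% intervals. Gene ends take 10.2% and 6.13% of the held classes and 46.3% of the regions in all 4 lists.

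The members were spread over the genome. The Flag-held share of a chromosome's regions ran from 0.712% on chromosome 19 (11 regions) to 1.76% on chromosome 14 (37 regions) among the autosomes, and it was 1.62% on X. Of the 25 regions on Y, 0 were Flag-held and 1 was D209N-held. Another Flag-held region lay within 100 kb of 105 Flag-held regions (13.2%), and another D209N-held region within 100 kb of 4 D209N-held regions (1.89%). A region of the opposite class lay that near to 26 Flag-held (3.28%) and 24 D209N-held (11.3%) regions, so the classes also met at some loci. These shares depend on the sizes of the classes (793 and 212 regions) and were not taken for other regions. Whether either class was clustered was not tested.

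The distance to the other arm's own peaks was read next, which without signal or depth does not show how firm an absence is. The median Flag-held region lay 16.6 kb from the nearest D209N peak at day 3 and 9.75 kb at day 7. The median D209N-held region lay 15.1 kb from the nearest Flag peak at day 3 and 11.7 kb at day 7. A peak of the other arm on either day lay within 500 bp of 38 Flag-held (4.79%) and 12 D209N-held (5.66%) regions, and within 2 kb of 143 (18%) and 38 (17.9%). Regions that changed arm, from Flag and from D209N, had like shares beside peaks of the lists that lack them. These were 4.35% and 6.42% within 500 bp, and 16.3% and 19.9% within 2 kb. At the edge of the rule, the Flag-held region nearest to a D209N peak was 35 bp from it, on chromosome 8 from 40996451 to 40996722, inside a gene and 5.67 kb from an end of Mtus1. The region left out with the smallest overlap shared 14 bp with a D209N peak, on chromosome 7 from 132742387 to 132742741, 30.5 kb from Fam53b. For D209N the nearest member was 12 bp from a Flag peak (chromosome 11 from 42421303 to 42421457, 1.86 kb from Gabrb2), and the region left out shared 3 bp (chromosome 13 from 21167247 to 21167934, 11.9 kb from Trim27).

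Peak names carry a serial number that ascends along each list and skips values. Of neighbouring peaks in a list, 9.95% of pairs in Flag day 3, 21% in Flag day 7, 20.2% in D209N day 3 and 26.5% in D209N day 7 skip at least 1 number. Between the D209N peaks that flank a Flag-held region, a number was skipped in 58.0% at day 3 and 76.2% at day 7. The same share was 58.4% and 74.0% over the regions listed with Flag that day and absent from D209N, and 50.4% and 66.2% over all regions absent from those lists. Between the Flag peaks that flank a D209N-held region, a number was skipped in 24.5% at day 3 and 63.2% at day 7, beside 27.5% and 63.4% of the regions listed with D209N that day and absent from Flag, and 25.4% and 57.3% of all absent regions. The held regions thus differed by less than counting error from the 1-arm regions of the same day. No number was skipped on either day at 88 Flag-held (11.1%) and 57 D209N-held (26.9%) regions, of 791 and 212 with peaks on both sides, a ratio of 1.54 (1.11 to 2.15) in place of 3.74. With the further condition of no peak of the other arm within 2 kb, chosen after seeing the data, 54 and 42 were left, a ratio of 1.29 (0.861 to 1.92). Whether a skipped number stands for an interval removed at that place is not recorded, and its part in the absence was not tested. The D209N lists skip more often than the Flag list of the same day, so this condition takes more from the Flag-held class.

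**Figure D4:**
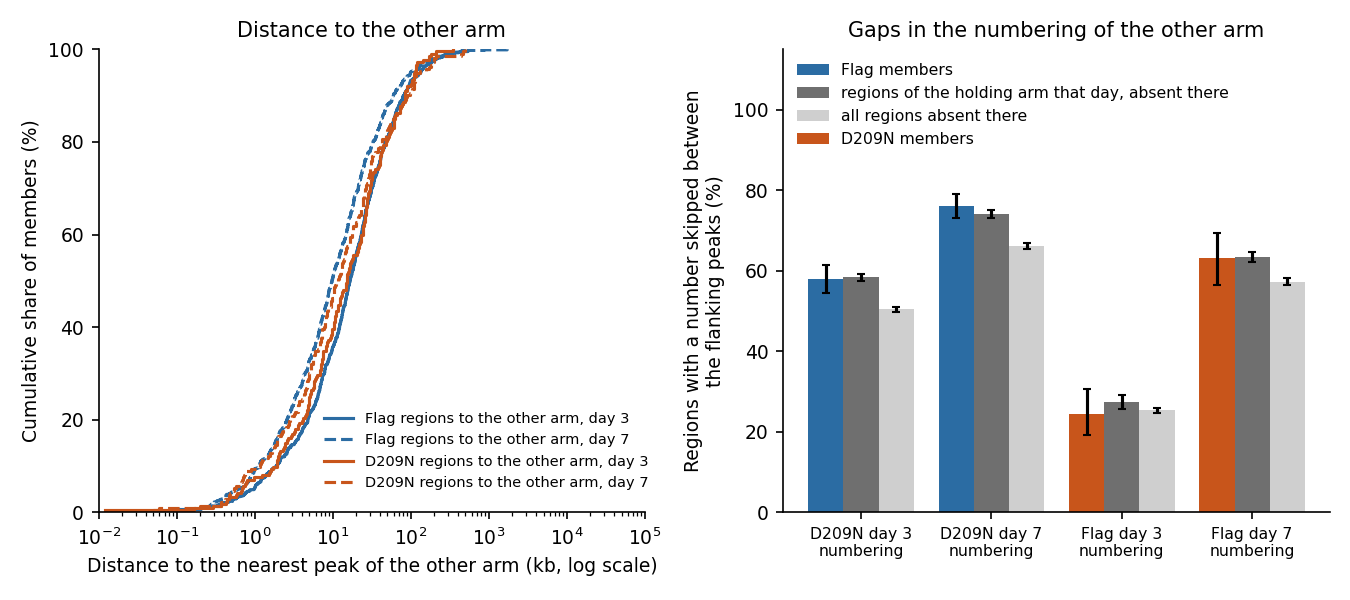
The left panel gives the cumulative share of members (%) by distance in kb, on a log axis, to the nearest peak of the other arm at day 3 (solid) and day 7 (dashed). The right panel gives the share of members with a skipped number between the flanking peaks of the other arm's list, beside the regions of the holding arm that day that are absent from that list (dark grey) and all regions absent from it (light grey), with Wilson 95% intervals. Flag-held regions stand at 76.2% in the D209N day 7 numbering beside 74.0% for Flag day 7 regions absent there, and D209N-held regions at 24.5% in the Flag day 3 numbering beside 27.5%.

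Members were ranked by the bases under their own peaks, summed over both days, and the leading Flag-held regions are described first. The member with most bases under its own peaks was on chromosome 10 from 96334242 to 96335095, with 854 bp at day 3 and 477 bp at day 7, and lay 282 kb from Btg1, an anti-proliferative gene. One on chromosome 13 (64343827 to 64344450), with 591 and 609 bp, lay 17.8 kb from Ctsl, which encodes the lysosomal protease cathepsin L. It was wide on both days, and the nearest D209N peak was 25.5 kb away on either day. Inside Frem2, a gene of the basement membrane, a peak of 696 and 473 bp stood on chromosome 3 (53564090 to 53564817). Inside Zbtb20, which encodes a zinc finger repressor, a peak of 458 and 570 bp stood on chromosome 16 (43547452 to 43548071). The other leading members away from gene ends were near Strap (621 and 456 bp) and inside Mrnip (202 and 829 bp), the latter wide at day 7 only.

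At gene ends, the Flag-held region with most bases under its peaks covered the start of Col24a1, a fibrillar collagen gene, on chromosome 3 from 145292421 to 145293308. Its peak spanned 272 bp at day 3 and 888 bp at day 7, and no D209N peak lay nearer than 171 kb at day 3 and 35.4 kb at day 7. At Kcmf1, a ubiquitin ligase gene, the peak spanned 727 and 386 bp, and near Rassf9 899 and 182 bp. The start of Pglyrp1, which encodes a peptidoglycan-binding protein of innate immunity, had 581 and 499 bp (chromosome 7, 18884332 to 18884912). Hsd17b2, a steroid dehydrogenase gene, had 358 and 558 bp. Tnfrsf14, which encodes a receptor of lymphocyte regulation, had 328 and 499 bp at its start, and Foxd3, a transcription factor gene of the neural crest and of embryonic stem cells, 204 and 614 bp. The 3 other leading gene-end members were at Tpm1, Ccdc170 and Odf3l2.

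The leading D209N-held region by the same measure, on chromosome 4 from 71131166 to 71132032, had 348 bp at day 3 and 867 bp at day 7 and lay 597 kb from Megf9. One inside Calu, the gene of a calcium-binding protein of the secretory pathway, had 559 and 493 bp (chromosome 6, 29362722 to 29363280). One inside Zfp809, which encodes a zinc finger protein that silences retroviral elements, had 534 and 496 bp (chromosome 9, 22226797 to 22227494), and Flag peaks stood 0.701 and 0.571 kb away. Near Zfp217 a region of 397 and 611 bp had Flag peaks at 0.740 and 0.759 kb. These 2 therefore stood beside listed peaks of the Flag arm. Near Irs2, an adaptor of insulin signalling, a region of 263 and 666 bp had Flag peaks at 2.47 and 2.3 kb. Near Dusp6, a phosphatase gene of the ERK pathway, a region of 524 and 394 bp had Flag peaks at 10.7 and 58.9 kb.

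The 13 D209N-held gene ends included 2 collagen genes. At the start of Col3a1 (chromosome 1, 45311430 to 45311882) the D209N peak had 223 bp at day 3 and 406 bp at day 7, and the nearest Flag peaks were 1.93 and 1.91 kb away. At Col6a1 (chromosome 10, 76726109 to 76726445) it had 281 and 251 bp, with Flag peaks 3.57 and 3.63 kb away. No number was skipped at Col3a1 on either day, while at Col6a1 2 were skipped at day 7. Sfi1 (293 and 450 bp) had most bases under its peaks of both days, followed by Fam136a (408 and 257 bp), where Flag peaks stood 0.429 and 0.417 kb away. Ddx3y, an RNA helicase gene on Y, had 388 and 264 bp, with Flag peaks no nearer than 40.4 kb. Rdh5, a retinol dehydrogenase gene, had 305 and 251 bp. At Inhbe the day 3 peak spanned 12 bp and the day 7 peak 447 bp, so its presence at day 3 rests on those 12 bp.

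Genes were linked to members by distance: a member belongs to the coding gene whose end lies closest, up to 100 kb away. Flag-held regions were assigned to 659 genes, 3.01% of the 21887 coding genes, and D209N-held regions to 171 genes, 0.781%. A gene end was touched in 89 genes (0.407%) and 15 genes (0.0685%). Most genes had 1 member: 624 had 1 Flag-held region, 34 had 2 and only Tspan5 had 3, while 169 had 1 D209N-held region and Pde3a and Gm21190 had 2. At Tspan5, a tetraspanin gene, the regions had 212, 425 and 242 bp at day 3 and 264, 337 and 259 bp at day 7, and lay 90.2, 19.4 and 40.0 kb from its nearest end. At Pde3a, a cyclic nucleotide phosphodiesterase gene, they had 55 and 275 bp at day 3 and 99 and 502 bp at day 7. Genes with 2 Flag-held regions included Hdac11, a histone deacetylase gene, Creb3l2, a transcription factor gene, Arhgap10, Cryba4, Tcp10c and Ccdc170.

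Both classes met at 15 genes. Inside Med13l, a subunit of the Mediator complex, a D209N-held region (chromosome 5, 118591919 to 118592253) lay 8.05 kb from a Flag peak at day 7, and Flag-held regions began at 118600305 and at 118737592. At Pou2f2, which encodes the octamer-binding factor Oct2, a Flag-held region of 339 and 241 bp lay 7.29 kb from a gene end and a D209N-held region of 301 and 258 bp lay 24.9 kb from one. Irs2 and Eya4 also had 1 of each, and so did Slc13a4, Chic2, Armc3 and Farp2. A gene assigned to one class was thus not always without the other.

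The gene lists covered 20 groups and 354 matched genes, of which 16 (4.52%) had a Flag-held region and 7 (1.98%) a D209N-held region. Of 35 pluripotency genes, 0 had a region of either class, and none touched or was assigned to Pou5f1, Sox2, Klf4 or Myc, the loci of the delivered factors, or Rnaseh1. Counts were also 0 in both classes for the p53 and DNA damage response (15 genes), interferon response (18), cell cycle (20), neural (15), endoderm and trophoblast (15) and endothelial (12) groups. The lists are short beside the background shares, and a count of 0 or 1 is near what those shares give.

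Mesenchymal and matrix genes appeared in both classes. For these and the lists that follow, the shares over all coding genes were 3.01% (Flag-held) and 0.781% (D209N-held). Of 24 mesenchymal genes, Runx1, Runx2 and Tpm1 had a Flag-held region and Zeb1, a repressor of epithelial genes, a D209N-held region. Of 22 fibroblast matrix genes, Loxl2 had a Flag-held region and Col3a1 and Col6a1 a D209N-held region. At Runx2, the master factor of bone formation, the Flag peak lay at a gene end on chromosome 17 (44814739 to 44815053) with 297 bp at day 3 and 124 bp at day 7, 37.0 kb from D209N peaks on either day. At Tpm1, which encodes an actin-binding tropomyosin, it had 493 and 392 bp (chromosome 9, 67023122 to 67023642), with the day 7 D209N peak 19.9 kb away. At Loxl2, a collagen cross-linking enzyme gene, it had 149 and 416 bp (chromosome 14, 69608956 to 69609371), 53.2 kb away. The region inside Zeb1 had 203 and 286 bp, with Flag peaks 0.776 and 0.370 kb away, so it stood beside listed peaks of the Flag arm.

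Of the 12 RUNX, CEBP and NFI factor genes, 3 had a Flag-held region and 0 a D209N-held region. The region inside Runx1, a factor of blood and stromal lineages, had 262 and 350 bp and lay 85.5 kb from a gene end, with a D209N peak 1.59 kb away at day 7. The region inside Nfib, a nuclear factor I gene, had 297 and 311 bp, with D209N peaks 2.43 and 40.3 kb away. With assignment limited to 20 kb, only Runx2 of these 3 was left. Of 12 AP-1 genes only Fos had a member, Flag-held, of 234 and 217 bp, 10.5 kb from the gene and 1.41 and 1.26 kb from D209N peaks. Of 17 TEAD and Hippo genes, Amotl1 had a Flag-held region (270 and 507 bp) and Tead1 a D209N-held one (213 and 226 bp). The Amotl1 region lay 13.5 kb from the gene, with D209N peaks 60.9 and 22.3 kb away. The Tead1 region lay 65.9 kb from a gene end, with Flag peaks 15.3 and 1.16 kb away, and was lost when assignment was limited to 20 kb.

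Of 24 chromatin regulator genes, Hdac2, Jarid2 and Tet3 (12.5%) had a Flag-held region and 0 a D209N-held region, beside 3.01% and 0.781% of all coding genes. The region inside Tet3, which encodes an enzyme that oxidises methylated cytosine, had 364 bp on both days, with D209N peaks 1.64 and 1.54 kb away. The region near Jarid2, a partner of Polycomb complex 2, had 238 and 338 bp, and the one near Hdac2, a histone deacetylase gene, 388 and 242 bp. The Jarid2 region lay 70.7 kb from the gene, with D209N peaks 70.0 and 13.4 kb away. The Hdac2 region lay 48.3 kb from the gene, with D209N peaks 1.51 and 1.56 kb away. With assignment limited to 20 kb, only Tet3 of these genes was left. Of 22 R-loop processing genes, only Top1 had a member. Top1 encodes topoisomerase I, which relaxes supercoiled DNA during transcription. The Flag-held region inside it (chromosome 2, 160700259 to 160700741) had 475 bp at day 3 and 390 bp at day 7, the nearest D209N peaks were 30.3 and 30.1 kb away, and no number was skipped there on either day. It lay 22.3 kb from the nearer gene end and was lost from the list's count when assignment was limited to 20 kb.

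Of 26 epithelial genes, Grhl1 and St14 had a Flag-held region and Epcam a D209N-held region. The region inside Grhl1, an epithelial transcription factor gene, had 344 and 273 bp. The one near St14, which encodes the membrane protease matriptase, had 240 and 301 bp. The one near Epcam, an epithelial adhesion gene, lay 77.3 kb from the gene and had 106 and 364 bp, with no number skipped on either day. Of the 22 TGF-beta and BMP genes only Bmp7 had a member, D209N-held, with 263 and 412 bp at 56.5 kb. Of the 15 housekeeping genes only Polr2a, the gene of the largest subunit of RNA polymerase II, had one, D209N-held, with 262 and 317 bp at 9.19 kb. Among markers of other cell types, the Flag-held class had 1 member each at Mef2c (muscle), Cd34 (macrophage and blood) and Pkp1 (keratinocyte), and the D209N-held class none. Of these only the Cd34 region, of 97 and 286 bp, was at a gene end. The region assigned to Mef2c, of 220 and 245 bp, lay beside the hairpin of Mir9-2, which starts at 83738814 on chromosome 13, where the region ends at 83738367.

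**Figure D5:**
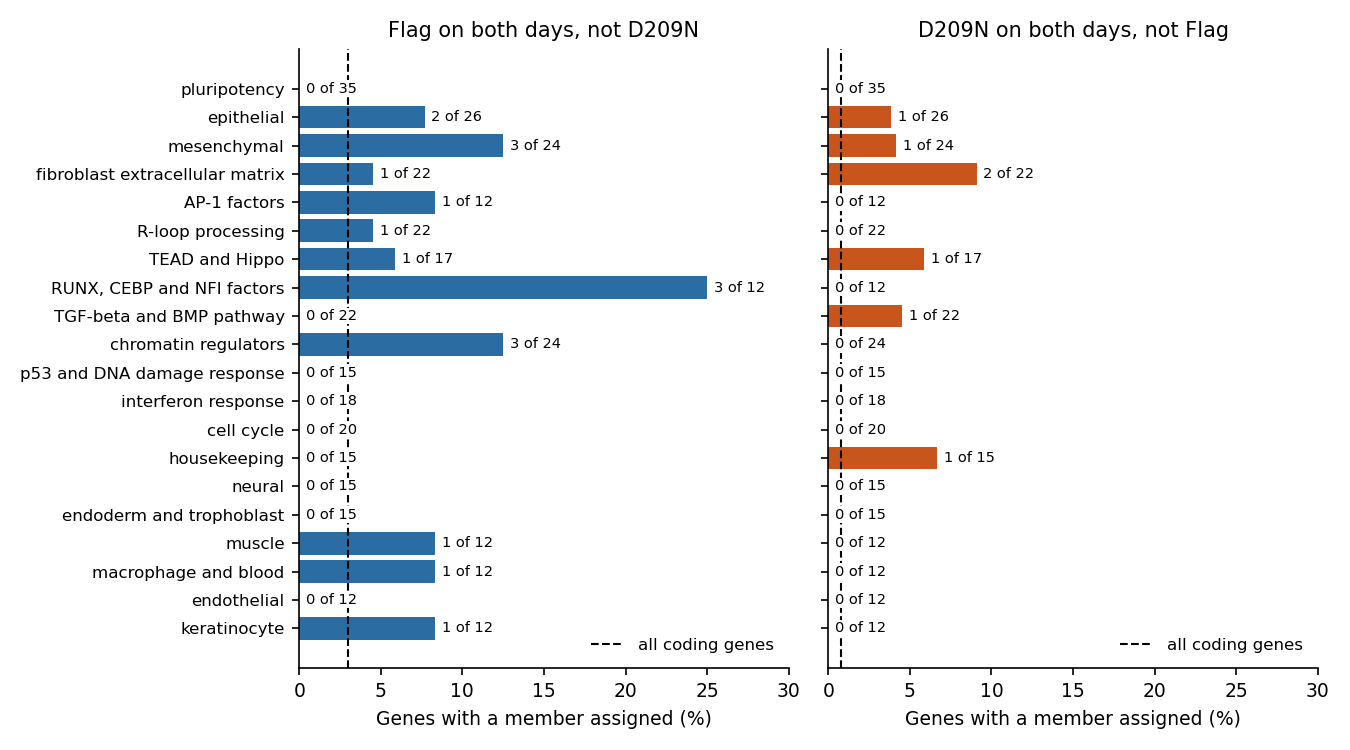
Bars give the percentage of each list's matched genes with a Flag-held (left) or D209N-held (right) region assigned within 100 kb, with the count beside each bar, and dashed lines give the share over all coding genes (3.01% and 0.781%). The longest bar is 3 of 12 RUNX, CEBP and NFI factor genes with a Flag-held region, and pluripotency genes stand at 0 of 35 in both panels.

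The labelled cell type was read from gene-end peaks of defining markers. Of 9 fibroblast markers, D209N day 7 had one at 6 and each other list at 5, and Thy1, Pdgfra and Prrx1 had one in none. Keratinocyte markers had 0 of 3 in every list, macrophage markers 1 of 4 and endothelial markers 2 of 4. Of 6 pluripotency markers, 3 (Pou5f1, Sox2 and Zfp42) had one in each list except Flag day 7, where Zfp42 had none. Nanog, Esrrb and Dppa5a had none in any list. Pou5f1 and Sox2 are also delivered factors, and the lists do not separate reads of the delivered copies from those of the endogenous loci. All 3 epithelial markers had one except in D209N day 3, where Cdh1 had none. Col3a1 is itself a fibroblast marker and a member, so its gene-end peak distinguishes the arms in this count by construction.

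The 37 promoters overlapped by Flag-held regions, of 35 genes, had a median of 55.7% G and C and 9 CpG, beside 62.3% and 23 for the 10554 promoters overlapped by regions in all 4 lists and 56.3% and 13 for all 21263 coding promoters. A GC box (GGGCGG, either strand) was in 48.6% of them (33.4 to 64.1), beside 70.4% in the promoters of all-4-list regions and 46.2% in all. The KLF letters GGGNGTG were in 24.3% (13.4 to 40.1), beside 37.1% and 31.7%. In these measures the Flag-held promoters were nearer to the average coding promoter than to the shared open ones. TEAD letters (GGAATG) and RUNX letters (TGTGGT) were each in 8 of the 37, or 21.6% (11.4 to 37.2), beside 13.6% and 15.0% of all coding promoters. The AP-1 letters TGANTCA were in 8.11% beside 6.99%, CCAAT in 27% beside 38.2%, the E-box CACGTG in 13.5% beside 7.84%, and TATAAA in 8.11% beside 12.6%. Each of these intervals includes the share of all coding promoters. The octamer ATGCAAAT was in 1 of the 37, and the Sox letters ACAATNG and the palindromic NFI motif in 0, which leaves a share of up to 9.41% by the Wilson bound. Only 6 promoters were overlapped by D209N-held regions, too few for shares to be compared. KLF and GC box letters can overlap in a promoter, and both strands were read for every motif.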

How the data were processed

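The authors deposited 1 ATAC-seq peak list per group, with coordinates and a peak name of arm, day, rep1 and serial number as its only fields (unit: other), and no score, signal or read count. Since every name carries rep1, a list may stand for replicate 1 alone or for both replicates. Reads were handled with CASAVA and Bowtie2 2.3.2 against mm10 or GRCm38.p5, per the submitters' processing notes. The peak caller, its threshold, the Tn5 offset, the way 2 replicates gave 1 list and the treatment of reads that map to several places are not stated in any source used here.

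The 4 lists were merged (overlapping or touching intervals joined) with pandas 2.3.3 and numpy 2.4.6 under Python 3.11.15. Intervals came from scipy 1.17.1 and figures from matplotlib 3.10.9. The merge was tested on simulated lists. Genes and promoters came from RefSeq tables of GRCm38.p6. A gene end is within 1 kb of either annotated end, and a member went to the coding gene whose end lay closest to its centre, up to 100 kb away. Skipped numbers were read from the peaks of the other arm that flank a region. The gene lists hold 364 entries, of which 362 matched.

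Named regions are the 10 members per class with most bases under their own peaks, the 10 at a gene end, every listed gene with a member, up to 8 genes with most members, and up to 8 with both classes. Other genes were named at the edge of the rule. The members and lists were chosen with earlier results of these data known. Motif shares were read in promoters, since no genome sequence was used.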

Additional observations from a re-analysis of the deposited data

How the results depend on the processing

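The 48 alternative values of the main results included 33 close to the reported one, 15 that moved and 0 that reversed. The 33 include the median widths of members built from 1 peak per list. Every member was built so, and these values could not change. Restricting members to own peaks at or above the median width on both days left 4 and 2 regions, a ratio of 2.00 (0.429 to 9.33). Restricting them to places with no skipped number left 88 Flag-held and 57 D209N-held regions (ratio 1.54), and adding no peak of the other arm within 2000 bp, an alternative chosen after seeing the data, left 54 and 42 (ratio 1.29). Flag-held regions at a gene end made up 6.81% with 500 bp on either side, 16.1% with 2500 bp and 7.69% at gene starts only, and D209N-held regions 13.7% with 2500 bp. Assignment within 20 kb left 413 genes with a Flag-held and 92 with a D209N-held region. Of 80 alternative list counts, 72 equalled the reported count or lay within 1.5 times it, and 8 did not. Most reported list counts were 0, and a count of 0 cannot change when assignment is limited to 20 kb. All 8 that moved belong to counts above 0, so the 72 is not a measure of stability.

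Each condition has 1 list without depth, so counting intervals are the only error, and the calling threshold behind each list is unknown. No paired analysis was possible because each group has 1 deposited list that carries no replicate columns. G and C content and motifs over the regions themselves were not run, since they need the genome sequence.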

Other observations

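The Flag-held gene ends also included genes of developmental transcription factors, which were picked here after their values were seen and belong to no list, so no count is drawn from them. At Lhx5, a LIM homeobox gene of the forebrain, the Flag peak had 333 bp at day 3 and 365 bp at day 7 (chromosome 5, 120431504 to 120432076), and the nearest D209N peaks were 71.3 and 7.08 kb away. At Sox14, of the SRY-related family, it had 227 and 271 bp, with D209N peaks 78.0 and 78.1 kb away. At Gsx2, a homeobox gene of the ventral forebrain, it had 198 and 150 bp, and at Irx4, an Iroquois homeobox gene of the heart ventricle, 226 and 64 bp. Hes7, a gene of the segmentation clock, had 436 and 77 bp, and a D209N peak lay 0.416 kb away at day 7. At each of these 5 gene ends at least 1 number was skipped in the D209N day 7 list, so none is among the 54 regions that met the stricter condition.

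Among the 54 Flag-held and 42 D209N-held regions of that condition, the Flag-held ones included the region inside Top1 and the one near Jarid2, and the D209N-held ones those near Epcam and Irs2, at Ddx3y and inside Med13l and Pou2f2.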
